A study of Homo sapiens with 3 samples.

Results

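The genes described here are 49 members of the amino acid arm of the integrated stress response: ATF4 and its partners, enzymes of serine, asparagine and proline synthesis, amino acid transporters and cytosolic tRNA synthetases. They were chosen by symbol, and all 49 had a row among the 57773 gene IDs of the count table, 17 of them, the tRNA synthetases, under newer names ending in 1 (AARS1 for AARS). Polyadenylated RNA was sequenced from NB4, an established human cell line of acute promyelocytic leukaemia with the fusion gene PML-RARA, grown in RPMI medium with fetal bovine serum. In 1 library the cells carried a non-target control short hairpin RNA, and in the other 2 a hairpin against ARID1B, a subunit of the BAF chromatin remodelling complex, with a different hairpin (2 or 3) in each. Every library thus came from hairpin-carrying cells of 1 cell line, and the labels do not say whether they came from separate cultures. The p-values rest on the spread between 2 libraries with different hairpins. For each gene that spread was combined with a spread pooled over all genes, which carried most of the weight. The spread between the 2 libraries mixes differences between the hairpins with a spread between samples that may be only technical.

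When amino acids run short, unfolded proteins collect, heme is lacking or viral RNA appears, kinases such as GCN2 (EIF2AK4) phosphorylate the alpha subunit of the initiation factor eIF2 (EIF2S1). General translation falls, while open reading frames upstream of the ATF4 coding sequence let more ATF4 protein be made from the same mRNA. ATF4, a basic leucine zipper factor that pairs with C/EBP proteins, then binds C/EBP-ATF composite elements and switches on amino acid synthesis, uptake and tRNA charging. Leukaemia cells rely on this programme when they divide quickly, and it also runs at a basal level in unstressed cultures. Because much of the control acts on translation, ATF4 mRNA is a poor gauge of ATF4 protein, which was not measured.

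Promoter sequences of the members that hold the letters of an ATF4 motif are shown first. RefSeq windows from 250 bases before to 50 after a transcription start (GRCh38.p14) were found for 38 of the 49 members. ALDH1L2, DARS, EIF4EBP1, LARS, NUPR1, PSPH, PYCR1, SHMT2, SLC7A11, VARS and YARS had none. The motif TGATGNAA, the core of the composite element, was searched on both strands, so that a match on the other strand reads TTNCATCA. It occurred in windows of 14 of the 38 members (36.8%), and in 14 of their 56 windows (25.0%), against 1270 of all 35114 windows of 300 bases (3.62%). Many members were listed as ATF4 targets and ATF4 binds this element, so their share is not independent of the choice of members. The difference was not tested. These 14 matches are printed with up to 10 bases on either side, on the strand of the gene, with the match in capitals.
CHAC1 (chr15:40953252-40953279, plus strand): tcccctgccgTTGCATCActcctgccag
ASNS (chr7:97872459-97872486, minus strand): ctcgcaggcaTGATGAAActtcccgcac
SLC7A1 (chr13:29595664-29595691, minus strand): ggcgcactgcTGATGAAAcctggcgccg
SLC3A2 (chr11:62881726-62881748, plus strand): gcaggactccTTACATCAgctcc
SLC1A5 (chr19:46784894-46784921, minus strand): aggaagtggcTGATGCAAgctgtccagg
SLC1A4 (chr2:64989382-64989409, plus strand): cggctcccgtTTGCATCAtctccagccg
SLC38A1 (chr12:46266503-46266530, minus strand): cagacccgaaTGATGAAAagggatcagc
AARS (chr16:70289676-70289703, minus strand): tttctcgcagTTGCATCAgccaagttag
CARS (chr11:3057408-3057435, minus strand): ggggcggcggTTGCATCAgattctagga
GARS (chr7:30594835-30594862, plus strand): tacgcggcgaTTTCATCAtgctccgagc
IARS (chr9:92293693-92293720, minus strand): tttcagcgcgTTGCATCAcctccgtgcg
MARS (chr12:57488054-57488081, plus strand): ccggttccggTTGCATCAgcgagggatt
NARS (chr18:57621805-57621832, minus strand): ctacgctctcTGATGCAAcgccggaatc
TARS (chr5:33440957-33440984, plus strand): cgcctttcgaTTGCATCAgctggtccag

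Of the 14 matches, 4 began after the transcription start (SLC7A1, SLC3A2, NARS and TARS). The synthetases held 7 of the 14 and the transporters 5. A match is a description of these letters and not evidence that a factor binds there.

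In cells with ARID1B silenced, DDIT4, an inhibitor of mTORC1 signalling, and WARS, the tryptophanyl-tRNA synthetase, rose, and the other members passed no test. Of the 47 members with enough counts to be tested, 2 were higher and 0 lower (edgeR quasi-likelihood test, Benjamini-Hochberg adjusted p under 0.05 over 20382 genes), while 5.49% of all genes tested were called higher and 3.21% lower (8.7% in either direction). The members' share called higher, 4.26%, was near that background, and among genes with a mean of at least 50 CPM, where most members lie, 7.97% were called higher and 2.45% lower. Over all genes 1119 were higher and 655 lower, and with DESeq2 775 and 277. DDIT4 and WARS were also the members called higher, and 0 were called lower, with library size alone (background 5.94% higher and 4.19% lower), upper quartile factors (4.86% and 4.17%), DESeq2 (3.8% and 1.36%), a minimum mean of 1 CPM (4.15% and 2.26%), the legacy fit (6.29% and 3.85%) and robust empirical Bayes (4.39% and 2.85%). Without a filter on low counts edgeR called 0 members and 0.0% of genes, with 9 of 49 members and 3218 of 32925 genes at an unadjusted p under 0.05. DDIT4 stood 2.11-fold above the control (95% interval 1.735 to 2.575) and WARS 1.68-fold (1.36 to 2.08). Fewer cells of a kind and less RNA per cell cannot be told apart in such bulk libraries.

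ARID1B itself had 84.8 CPM (read counts scaled to library size with TMM factors) in control cells, 36.7 CPM with hairpin 2 and 35.8 CPM with hairpin 3, and fell by 1.23 ± 0.125 (SE) on the log2 scale (edgeR adjusted p = 1.4e-05). The libraries held 59997475 to 62954803 counts, and the members together took 1.277% of the counts in the control (95% Wilson interval 1.274 to 1.28), 1.425% with hairpin 2 (1.422 to 1.428) and 1.409% with hairpin 3 (1.406 to 1.412). These intervals cover counting error only and not the spread between samples. Of 9 markers of promyelocytes and the myeloid line tested, 2 rose and 1 fell. MPO was high in every library (682719 to 836096 counts), while the promyelocyte protease ELANE had 10, 4 and 1 counts and so was nearly absent. Markers of eosinophils and mast cells moved with the knockdown: 7 of 9 tested rose, their summed level went from 91.7 CPM in the control to 2143 and 1125 CPM, and FCER1A was at 0 counts throughout. Only 3 of the 9 were called with robust empirical Bayes, and 0 without a filter on low counts. Of the monocyte and macrophage markers 2 of 7 tested rose (53.8 CPM summed in the control, 86.8 and 70.9 under the hairpins), of the T, NK and B cell markers 2 of 5 (33.8, 61.6 and 46.7 CPM), and of the epithelial, fibroblast and packaging cell markers 1 of 3 fell (25.6, 19.2 and 24.2 CPM). With DESeq2 these counts were 1, 1 and 0, and without a filter on low counts all were 0. The part of these changes in the members' values was not tested.

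The medians place the members slightly above the middle of all genes. Their median log2 fold change was 0.12 (0.13 under hairpin 2 and 0.12 under hairpin 3), against -0.012 over all genes tested and 0.034 over the 4402 genes with a mean of at least 50 CPM, where 42 of the 47 members lie. Both hairpin libraries stood above the control for 35 of the 49 members, against 36.9% of all genes tested and 45.7% of those with at least 50 CPM. They stood below it for 8 of the 49, against 41.0% of all genes tested. The 49 include NUPR1 and CHAC1, which were not tested. The 2 hairpin comparisons share the single control library, so the shared side is no separate sign of agreement. An unadjusted p under 0.05 in edgeR was reached, in either direction, by 9 of the 47 members tested (19.1%). Of all 20382 genes tested 4226 (20.7%) reached it, so the members' share was near the background. The 9 members all lay higher: DDIT4, WARS, AARS, SLC3A2, MTHFD2, MARS, PSAT1, TRIB3 and EIF2S1. All genes that reached it were not counted by direction, so this side has no background beside it.

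**Figure D1:**
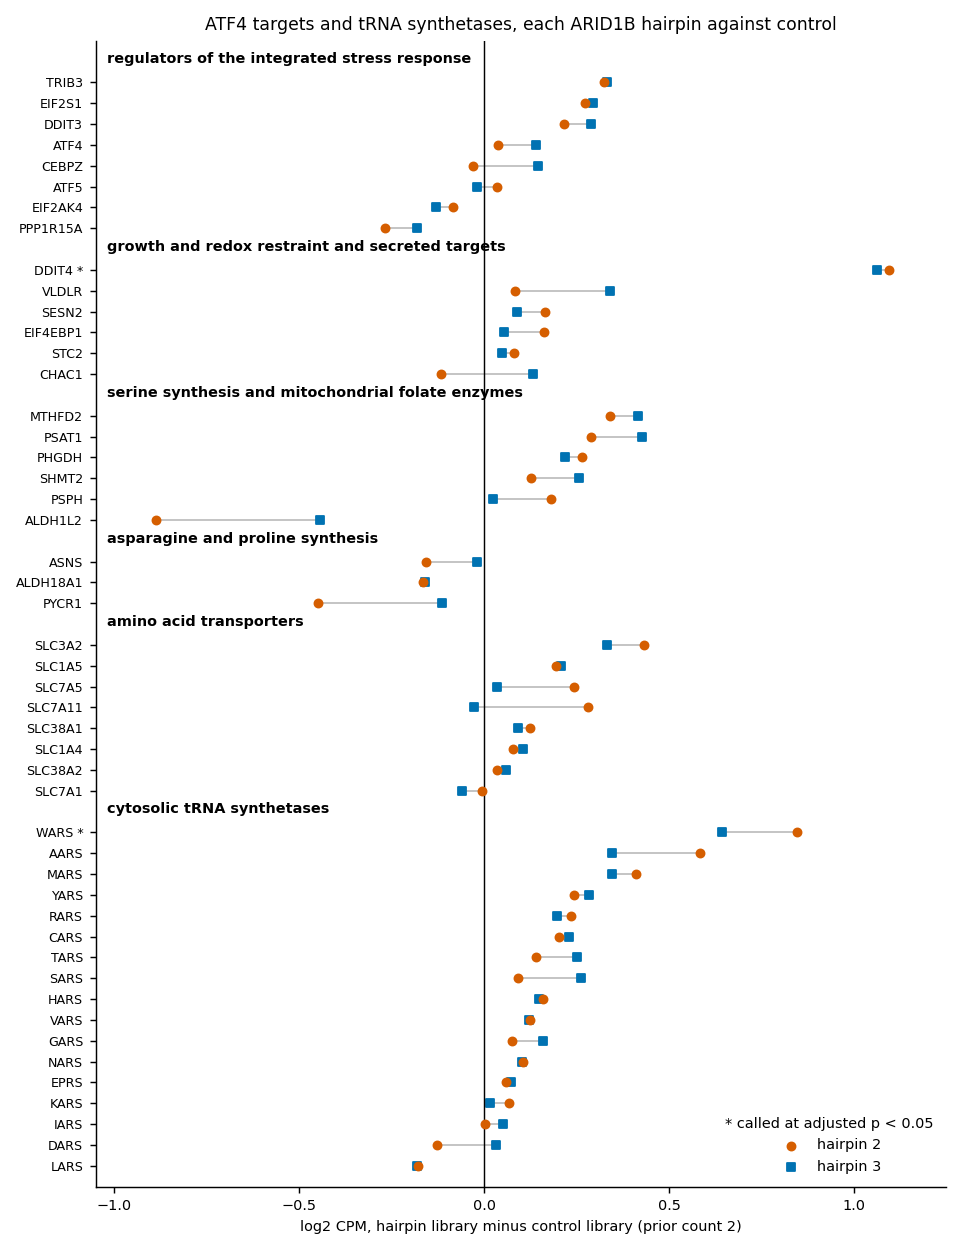
Difference in log2 CPM of each ARID1B hairpin library (circles hairpin 2, squares hairpin 3) from the control library for 48 members, grouped by role, with grey lines joining the hairpins; NUPR1, with 0 control counts, is left out. DDIT4 at 1.10 and 1.06 and WARS at 0.84 and 0.64 lie furthest to the right, while the 3 asparagine and proline enzymes lie on the left.

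Small changes would have escaped the test. Members with at least 50 CPM had standard errors of 0.127 to 0.168 on the log2 scale, and the smallest change called among all genes of that level was 0.42. The 95% intervals of 44 of the 45 members that were tested and not called lay within 2-fold of the control in either direction.

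Among the regulators, ATF4 mRNA was at 832 CPM in control cells, 855 CPM with hairpin 2 and 918 CPM with hairpin 3. Both hairpin libraries were above the control, by less than the test could call (log2 fold change 0.09 ± 0.161, interval -0.25 to 0.43, edgeR adjusted p = 0.819). TRIB3, a pseudokinase that ATF4 induces and that restrains it in turn, had 310 CPM in control cells against 388 and 390 CPM with the hairpins. Its 2 knockdown libraries were nearly equal and both higher, yet it did not pass (0.33 ± 0.141, edgeR adjusted p = 0.19). DDIT3 (CHOP), the C/EBP factor of prolonged stress, had 22.8, 26.5 and 27.9 CPM in the same order (0.25 ± 0.142, edgeR adjusted p = 0.345). DDIT3 shares 27.2% of its exon length with MARS on the other strand, whose counts were 1686% to 1930% of its own, so its level is less certain.

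ATF5, another factor translated under stress, had 261, 268 and 258 CPM, so the hairpins fell on opposite sides of the control. NUP62 shares 21.2% of the ATF5 exon length on the other strand and had 57.8%, 41.8% and 49.5% of its counts. CEBPZ encodes a CCAAT-binding protein of the nucleolus, and its hairpin libraries also straddled the control (142, 139 and 157 CPM). EIF2S1, the phosphorylated eIF2 subunit, had 112 CPM in the control against 135 and 137 CPM (0.28 ± 0.129, edgeR adjusted p = 0.223). Its kinase GCN2 (EIF2AK4) was slightly below the control in both libraries, at 87.1 against 82.1 and 79.5 CPM (-0.11 ± 0.127). PPP1R15A (GADD34), the phosphatase subunit that ends the response, was also below it in both, at 42.0 against 34.9 and 37.1 CPM (-0.22 ± 0.133, edgeR adjusted p = 0.376). The stress protein NUPR1 had 4 counts with hairpin 2 and 0 in the other libraries. With 0 counts the level may still reach 0.0483 CPM in control cells and 0.0481 CPM with hairpin 3, so NUPR1 could not be compared.

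DDIT4 (REDD1, ENSG00000168209) was the member with the largest change. Its counts were 4174 in control cells, 8642 with hairpin 2 and 8758 with hairpin 3, that is 67.2 CPM against 142 ± 2.28 CPM (SD, n = 2). Both knockdown libraries lay far above the control and close to each other, at 214% of it with hairpin 2 (95% exact counting interval 206 to 222) and 209% with hairpin 3 (201 to 217). The log2 fold change was 1.08 ± 0.134 (edgeR adjusted p = 7.3e-05). DDIT4-AS1 lies on the opposite strand over 41.2% of the DDIT4 exon length, and its counts were 67.8% to 68.1% of those of DDIT4 in the 3 libraries. Whether the counting used strand is not given in the sources used here, so reads of the pair cannot be told apart.

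The 250 bases before the DDIT4 start held neither the composite element nor the other motifs searched, which were the endoplasmic reticulum stress element, CCAAT and CCACG with 9 bases between them (0.0769% of all windows and 0 of the 38 members) and the interferon gamma activated site TTCNNNGAA (7.66% of all windows and 5 of the 38 members, 13.2%), both on either strand. The shares of all windows are per window, while a member was counted when any of its up to 3 windows held a match. These shares are thus not like for like. No matches of different motifs overlapped in the members' windows. The stretch is printed because DDIT4 rose most.
DDIT4 (chr10:72273674-72273923, plus strand): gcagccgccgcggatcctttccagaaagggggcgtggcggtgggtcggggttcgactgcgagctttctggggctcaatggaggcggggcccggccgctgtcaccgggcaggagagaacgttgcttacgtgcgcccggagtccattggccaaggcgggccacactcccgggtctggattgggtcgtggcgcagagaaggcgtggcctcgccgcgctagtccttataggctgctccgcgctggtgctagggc

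The other restraint and secreted targets did not follow DDIT4. SESN2, the leucine sensor that also curbs mTORC1, had 35.9 CPM in control cells against 40.2 and 38.2 CPM with the hairpins (0.13 ± 0.134, edgeR adjusted p = 0.669). EIF4EBP1, the translation repressor that mTORC1 switches off, had 125, 140 and 130 CPM (0.11 ± 0.131), and the secreted glycoprotein STC2 had 23.2, 24.6 and 24.0 CPM (0.06 ± 0.142). VLDLR, a lipoprotein receptor, was at 107 CPM in the control, 113 under hairpin 2 and 135 under hairpin 3 (0.22 ± 0.14). Its hairpin libraries differed more from each other, with a ratio of hairpin 2 to hairpin 3 of 0.837 (exact counting interval 0.811 to 0.865), than hairpin 2 did from the control. CHAC1, the glutathione-degrading enzyme and one of the most strongly induced genes of an active response, had 8, 7 and 9 counts and was not tested. Its promoter element, printed above, thus stood before a gene that was close to silent in all 3 libraries.

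The serine and mitochondrial folate enzymes lay above the control with 1 exception, none past the threshold. PHGDH, which opens the serine pathway, had 360 CPM in the control and 433 and 419 CPM in the knockdown libraries (0.24 ± 0.143, edgeR adjusted p = 0.373). PSAT1, the next enzyme, went from 258 CPM to 315 and 347 CPM (0.36 ± 0.142, edgeR adjusted p = 0.149), and PSPH, the last, from 55.1 CPM to 62.5 and 56.0 CPM (0.10 ± 0.133). Of the 3, PSPH lay closest to the control, and its pseudogene copy held 7.51% as many counts, so its level is less certain. SHMT2, which splits serine into glycine and a folate-bound carbon, had 531, 580 and 635 CPM (0.19 ± 0.153). MTHFD2, the folate enzyme that follows it, had 369, 468 and 493 CPM (0.38 ± 0.146, interval 0.07 to 0.69, edgeR adjusted p = 0.137). MTHFD2 shares 27.2% of its exon length with SLC4A5 on the other strand, a gene with 1080 to 1289 counts (3.93% to 4.71% of those of MTHFD2), and 6.1% with the protein-coding gene ENSG00000264324, also on the other strand, with 8898 to 10677 counts (34.7% to 38.8%). ALDH1L2, which returns mitochondrial folate carbon as carbon dioxide, had 17 counts against 8 and 12, too few to place it (-0.74 ± 0.601, interval -2.02 to 0.54).

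The 3 enzymes of asparagine and proline synthesis lay below the control in both hairpin libraries, again without passing. ASNS, the asparagine synthetase and a classic readout of ATF4, had 233 CPM in the control, 209 under hairpin 2 and 230 under hairpin 3 (-0.09 ± 0.135, interval -0.37 to 0.20, edgeR adjusted p = 0.788). ALDH18A1, which commits glutamate to proline, had 200 CPM against 178 and 179 CPM (-0.16 ± 0.13, edgeR adjusted p = 0.54). PYCR1, the last enzyme of proline synthesis, had 94.8, 69.4 and 87.6 CPM (-0.27 ± 0.145, edgeR adjusted p = 0.315). Its drop was mostly under hairpin 2, at 73.2% of the control (exact counting interval 70.3 to 76.2) against 92.4% under hairpin 3 (89.0 to 95.8), and the antisense gene over 15.6% of its exons had a near-constant 35.5% to 36.3% of its counts.

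Of 8 amino acid transporters none was called. SLC3A2 (CD98 heavy chain), which carries several light-chain transporters to the membrane, came closest, with 263 CPM in the control and 355 and 331 CPM in the knockdown libraries (0.38 ± 0.141, interval 0.08 to 0.68, edgeR adjusted p = 0.116). Its partner SLC7A5 (LAT1), which imports leucine and other large amino acids, had 874, 1035 and 896 CPM. SLC7A5 was higher mainly under hairpin 2, and the fitted change was 0.14 ± 0.168. SLC7A11 (xCT), the cystine importer that also pairs with SLC3A2, had 85.2 CPM in the control, 104 under hairpin 2 and 83.6 under hairpin 3, so the hairpins lay on opposite sides of it. The hairpin 2 to hairpin 3 ratio of SLC7A11 was 1.24 (exact counting interval 1.19 to 1.29), a difference without a replicate check. SLC1A5 (ASCT2), the glutamine exchanger, had 1003, 1147 and 1157 CPM (0.20 ± 0.167, edgeR adjusted p = 0.563), with both hairpins near each other. The arginine and lysine carrier SLC7A1 (-0.03), the neutral amino acid carriers SLC1A4 (0.09), SLC38A1 (0.11) and SLC38A2 (0.05) changed by less than their standard errors of 0.128 to 0.145.

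Of 17 cytosolic tRNA synthetases, the enzymes that load each amino acid onto its tRNA, WARS rose and the rest did not pass. WARS (WARS1, ENSG00000140105) had 11073, 19260 and 17376 counts in control, hairpin 2 and hairpin 3 cells. This was 178 CPM against 299.5 ± 29.4 CPM (SD, n = 2), or 180% of the control with hairpin 2 (175 to 184) and 156% with hairpin 3 (153 to 160). Both hairpin libraries were far above the control and hairpin 2 was the higher, and the log2 fold change was 0.75 ± 0.146 (edgeR adjusted p = 0.00347). An unnamed antisense gene over 6.1% of the WARS exons had 1465, 2479 and 2235 counts, 12.9% to 13.2% of those of WARS. WARS is known, unlike most synthetases, as a gene that interferon gamma induces. Neither of its RefSeq windows held the composite element. The window of the downstream start held 1 match to the interferon gamma activated site. The same site lay in windows of SLC3A2, SLC38A1, CARS and TARS, none of them called, and in 7.66% of all windows. Its part in the rise of WARS was not tested. Both stretches are printed because WARS was the synthetase that rose, with the match in capitals.
WARS, upstream start (chr14:100376328-100376577, minus strand): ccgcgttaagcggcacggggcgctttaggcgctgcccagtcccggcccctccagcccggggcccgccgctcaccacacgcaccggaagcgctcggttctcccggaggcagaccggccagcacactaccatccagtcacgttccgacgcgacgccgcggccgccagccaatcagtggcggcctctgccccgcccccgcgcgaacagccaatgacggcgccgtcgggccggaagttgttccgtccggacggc
WARS, downstream start (chr14:100375348-100375597, minus strand): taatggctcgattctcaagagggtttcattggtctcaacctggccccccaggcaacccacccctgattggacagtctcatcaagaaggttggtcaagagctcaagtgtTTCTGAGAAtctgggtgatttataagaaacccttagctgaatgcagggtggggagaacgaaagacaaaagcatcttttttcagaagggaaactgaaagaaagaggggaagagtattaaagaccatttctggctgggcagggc

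AARS, the alanyl enzyme, was next, with 335 CPM in the control, 502 under hairpin 2 and 425 under hairpin 3. Both hairpin libraries were higher, at 150% and 127% of the control, but the change missed the threshold (0.47 ± 0.154, interval 0.14 to 0.80, edgeR adjusted p = 0.0748). MARS, the methionyl enzyme, had 385, 511 and 489 CPM (0.38 ± 0.147, edgeR adjusted p = 0.14). ARHGAP9, which overlaps 7.4% of the MARS exon length on the other strand, went from 1257 counts to 4183 and 3062, and its part in the MARS counts was not tested. The remaining 14 synthetases lay between -0.18 (LARS) and 0.26 (YARS) on the log2 scale, with 12 of them at positive values. LARS, the leucyl enzyme, was the 1 synthetase below the control in both libraries, at 471 CPM against 417 and 416 CPM (-0.18 ± 0.142, edgeR adjusted p = 0.535). DARS was on opposite sides of it under the hairpins (163, 149 and 167 CPM).

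The 14 members with a composite element included 13 that were tested, with 0 calls and a median of 0.12, against 2 calls and a median of 0.15 in the 24 members whose windows held no match. Both members that rose were thus without the element in these windows, which says nothing of elements elsewhere.

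**Figure D2:**
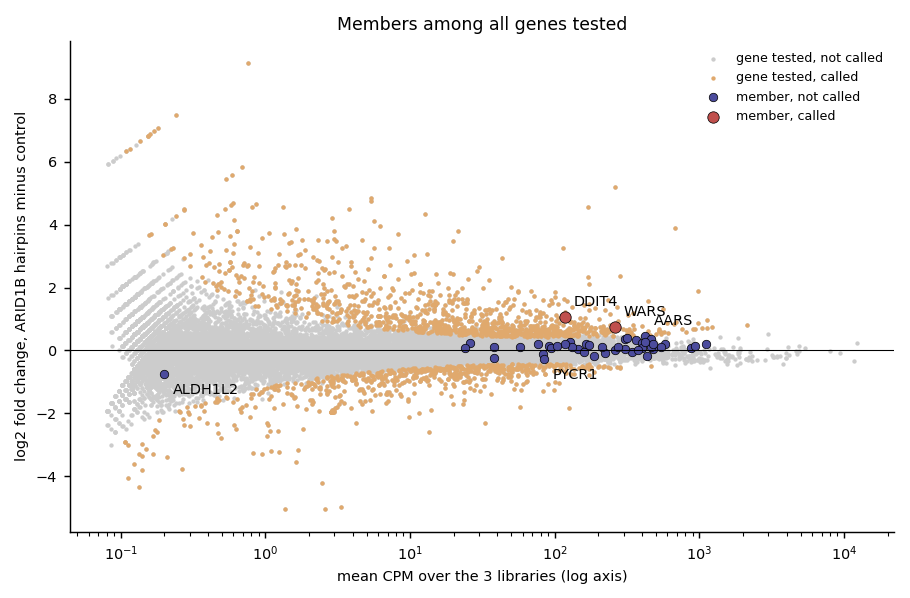
Mean CPM over the 3 libraries (log axis) against the fitted log2 fold change for 20382 genes tested (grey, or orange where called) and the 47 members tested (blue, or red where called). Most members lie to the right, at a mean of at least 50 CPM, in a narrow band around 0, with DDIT4 and WARS above it and ALDH1L2 alone among the weakly expressed genes.

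Levels per exon length are given in RPKM (CPM per kilobase of exon, using GENCODE 29 exon lengths). These lengths join the exons of all annotated transcripts of a gene, such as 2514 bases for ATF4 and 9217 for PHGDH. The order of genes in RPKM therefore depends on the annotation. By CPM in the control library, SLC1A5 (1003) and SLC7A5 (874) lay above ATF4 (832). In RPKM ATF4 was the highest member, with 331 in the control and 340 and 365 under the hairpins. SLC1A5 followed with 301, 344 and 347 RPKM, and these overlap with the levels of ATF4, so the 2 cannot be ordered beyond their spread. SLC7A5 was next at 184, 218 and 189 RPKM and stood apart from both neighbours. GARS (124 RPKM in the control), PSAT1 (118), EIF4EBP1 (116) and SHMT2 (110) came after it, and their libraries overlapped. Synthetases other than GARS lay between 12.3 (HARS) and 76.2 RPKM (TARS) in the control. At the lower end EIF2AK4 had 7.28 RPKM, STC2 3.79, CHAC1 0.0626 and ALDH1L2 0.0322, the last 2 far below the rest. With its rise DDIT4 moved from 32.7 RPKM, beside PYCR1 and VARS, to 69.8 and 68.3 RPKM, beside NARS (68.4 and 68.2 RPKM).

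**Figure D3:**
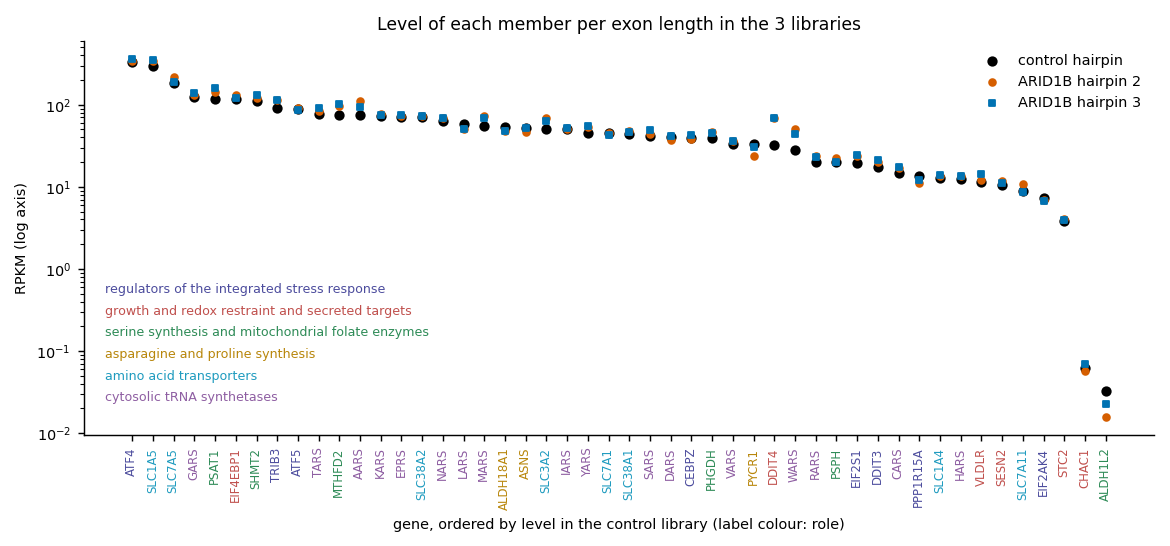
Level per exon length (RPKM, log axis) of 48 members in the control library (black), hairpin 2 (orange) and hairpin 3 (blue), ordered by the control and with gene labels coloured by role. Levels run from about 331 RPKM for ATF4 to under 0.1 RPKM for CHAC1 and ALDH1L2, and the 3 libraries separate visibly at DDIT4 and WARS.

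Other genes of the pathway were counted on lists that hold none of the members, to be read against the 5.49% of all genes tested that were called higher and the 3.21% called lower. The lists were chosen with earlier results of these data known, so their shares are not independent of them. Differences between these lists were not tested. Of 18 other eIF2 kinases, eIF2 and eIF2B subunits and phosphatase partners 0 rose and 0 fell, with EIF2S3 at -0.15 ± 0.152 and PPP1CC at 0.05 ± 0.148. Of 17 mitochondrial tRNA synthetases 0 were called (median -0.089, with IARS2 at 0.06 ± 0.129 and VARS2 at -0.31 ± 0.126), and of 8 other cytosolic synthetases and complex partners also 0 (median 0.022, with EEF1G at -0.20 ± 0.211 and QARS at -0.16 ± 0.146). The median of the 17 cytosolic synthetases was 0.15, and the difference between the cytosolic and mitochondrial enzymes was not tested. Of 13 other enzymes of proline, glutamine and aspartate metabolism 0 were called, with ASS1 at -0.32 ± 0.146 and the glutamine synthetase GLUL at 0.42 ± 0.141 (edgeR adjusted p = 0.0811). Of 18 other serine, glycine and folate enzymes 1 fell, the methionine synthase MTR (-0.46 ± 0.131), while MTHFD1 had -0.17 ± 0.141. The MTR call was lost with DESeq2 (adjusted p = 0.143) and with a minimum mean of 1 CPM (edgeR adjusted p = 0.0646).

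Of 14 transcription factors that pair with or resemble ATF4, 1 rose, CEBPB, from 1689 counts to 3120 and 2323 (0.71 ± 0.174, edgeR adjusted p = 0.0164), a call lost with robust empirical Bayes (0.0755) and with a minimum mean of 1 CPM (0.0802). NFE2L1 of that list had 0.02 ± 0.13 (-0.025 with upper quartile factors). Of 31 other reported ATF4 targets that were tested, 5 rose (16.1%, against 5.49% of all genes) and 2 fell (3.21% of all genes), and with a minimum mean of 1 CPM 4 rose and 0 fell. HMOX1, the heme oxygenase, went from 26 counts to 225 and 91 (2.62 ± 0.544), a call that robust empirical Bayes did not make (edgeR adjusted p = 0.29) and a minimum mean of 1 CPM did not either (0.0601). The others that rose were FAM129A (NIBAN1, 0.96 ± 0.138), HERPUD1 of endoplasmic reticulum associated degradation (0.73 ± 0.143), the ER-phagy receptor CCPG1 (0.67 ± 0.144) and, named after its values were seen like those that fell, the autophagy receptor SQSTM1 (0.62). CCPG1 shares 38.7% of its exon length on the same strand with DNAAF4-CCPG1, which went from 9873 counts to 15940 and 14558. SQSTM1 shares 20.7% of its exon length on the other strand with MRNIP, which went from 3346 counts to 4627 and 4303. The targets that fell were IGFBP2 (-0.57), which a minimum mean of 1 CPM did not call (0.0695), and KDM7A (-0.52), lost also with DESeq2 (0.146). Of 22 other amino acid transporters tested, 3 rose (13.6%, against 5.49% of all genes) and 2 fell (against 3.21%). SLC15A3 (1.26 ± 0.292), SLC6A6 (0.67 ± 0.136) and SLC36A1 (0.65 ± 0.165) rose and SLC16A10 (-0.93 ± 0.201) and, named after its values were seen, SLC7A2 (-0.53) fell. With DESeq2 0 of these transporters fell (adjusted p = 0.0678 for SLC16A10), and with a minimum mean of 1 CPM 1 rose and 1 fell.

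**Figure D4:**
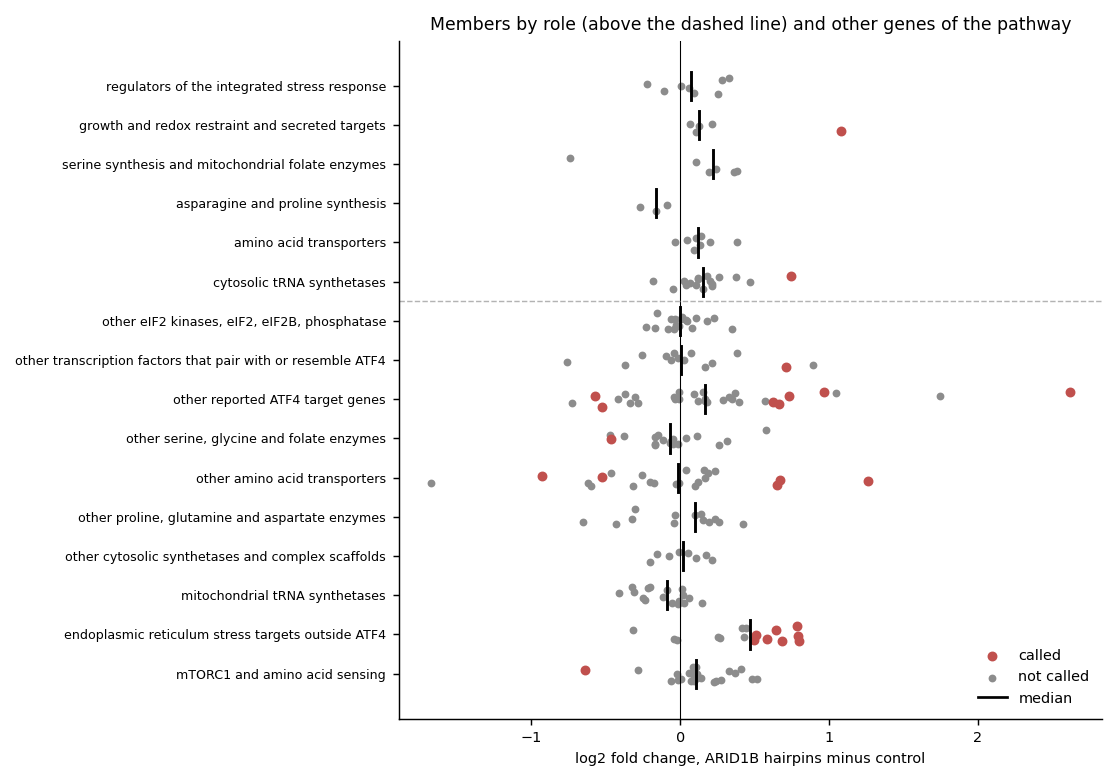
Fitted log2 fold change of every gene tested in the 6 roles of the members (above the dashed line) and in 10 lists of other pathway genes, with called genes in red, others in grey and a black bar at each median. The roles of the members centre between -0.16 and 0.22 with 2 red points, DDIT4 and WARS, while most of the red points lie in the stress target, transporter and endoplasmic reticulum lists.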

How the data were processed

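The authors deposited whole-number read counts per Ensembl gene, not normalized, for 3 libraries. STAR, featureCounts and Cufflinks and the build hg19 are named per the submitters' processing notes, while their roles, the annotation release and strand use were not given in the sources used here. Symbols came from a table of gene names and from GENCODE 29, which names another build, so only names, exon lengths and shared exons were taken from it. Promoter windows are RefSeq's (GRCh38.p14).

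The test was run with edgeR 4.0.16 under R 4.3.3, using filterByExpr by group (minimum count 10), TMM factors (0.9903 to 1.0074), glmQLFit with legacy = FALSE and a two-sided glmQLFTest, with Benjamini-Hochberg adjustment over 20382 genes at 0.05. Only 1 residual degree of freedom remained (2 libraries against 1), so the spread is the difference between the hairpins and the lone control was assumed to vary like them. The empirical Bayes prior, pooled over genes, had 14.8 such degrees and so outweighed the spread of the single gene. A standard error is the fold change (log2) divided by the square root of F, and 95% intervals use the t distribution of the fit. Differences of single hairpin libraries from the control used log2 CPM (prior count 2) without a test, with exact counting intervals that cover counting error only. DESeq2 1.42.0 was 1 of 7 alternative settings. The code was tested on simulated data.

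The members and lists were chosen with earlier results of these data known. The text names members that were called, whose hairpin libraries lie on opposite sides of the control, or whose role is described. Of each other list it names up to 4 called genes by size of change, then the most abundant until 2 are named.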

Additional observations from a re-analysis of the deposited data

How the results depend on the processing

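The calls of DDIT4 and WARS held with library size alone, upper quartile factors, DESeq2, a minimum mean of 1 CPM, the legacy fit and robust empirical Bayes, and no other member was called in any of these. Without a filter on low counts 0 members passed in edgeR (9 of 49 at an unadjusted p under 0.05; DDIT4 1.08 and WARS 0.75 with adjusted p = 0.465 and 0.47) and 0 genes in all (3218 at an unadjusted p under 0.05). Over the alternatives the adjusted p ranged from 1.4e-09 to 0.465 for DDIT4, from 1.8e-04 to 0.47 for WARS and from 0.0546 to 0.47 for AARS. All genes called numbered 1774, 1052 with DESeq2 and 960 with a minimum mean of 1 CPM. The share called higher went from 63.1% to 73.7% with DESeq2 and 53.8% with upper quartile factors.

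The members' median of 0.122 was 0.106 with library size alone, 0.0739 with upper quartile factors, 0.137 with DESeq2 and 0.118 with a minimum mean of 1 CPM, and from 0.121 to 0.125 with 1 hairpin left out (1 library against 1, no test). Members near 0 changed sign: ATF5 (-0.00801 with library size alone and -0.041 with upper quartile factors) and, with upper quartile factors, SLC38A2 (-0.00052), IARS (-0.022), KARS (-0.0067) and the pathway gene NFE2L1 (-0.025). The cause was not tested. No paired analysis was possible because the 2 ARID1B hairpin libraries shared a single control library. Counts of calls could not be had with 1 hairpin left out, since no residual degree of freedom remains.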

Other observations

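Beside the members stood a list of 16 endoplasmic reticulum stress targets, counted as driven mainly, but not only, by ATF6 and XBP1 rather than ATF4. It held 8 genes that rose and 0 that fell. Of all genes tested 5.49% were called higher, and 7.97% of those with a mean of at least 50 CPM. The list was chosen with earlier results of these data known, so its share is not independent of them. The lectin chaperone CALR went from 88841 counts to 151451 and 153482 (0.80 ± 0.197), the disulfide isomerase PDIA6 from 14556 to 25012 and 24779 (0.79 ± 0.144), the chaperone HSPA5 (BiP) from 16825 to 30583 and 26630 (0.79 ± 0.157) and SDF2L1 from 481 to 798 and 724 (0.68 ± 0.179; all edgeR, adjusted p = 0.0174, 0.00199, 0.00404 and 0.025). ATP6V1C2 overlaps 25.2% of the PDIA6 exon length on the other strand and went from 6106 counts to 10258 and 10360. The number of genes on the list that rose was 6 with DESeq2, 5 with upper quartile factors and 3 with a minimum mean of 1 CPM. It was 7 with robust empirical Bayes, 9 with library size alone, 10 with the legacy fit and 0 without a filter on low counts. CALR and SDF2L1 were among the calls lost with a minimum mean of 1 CPM (0.0676 and 0.0674), and SDF2L1 also with DESeq2 (0.0847). HERPUD1, counted above among the ATF4 targets, is also known as a target of this other arm. The difference between this list and the members was not tested.

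Of 25 genes of mTORC1 and amino acid sensing, the pathway that DDIT4 restrains, 0 rose and 1 fell, near the 3.21% of all genes tested that were called lower. This was the mTORC1 substrate AKT1S1 (PRAS40), from 2163 counts to 1384 and 1350 (-0.64 ± 0.137, edgeR adjusted p = 0.0068). MTOR itself had 0.10 ± 0.129. With library size alone and with the legacy fit 2 genes of this list were called higher.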
